A study of Rattus norvegicus with 35 samples.

Results

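Genistein was added to the maternal diet in one arm of a study of prenatal bisphenol A (BPA), and the arrays of that arm are set here against those of the same BPA dose without genistein. The members are 10 of the 35 arrays of the series, chosen by their titles: 5 from offspring exposed to BPA250+genistein and 5 from offspring exposed to BPA250. The RNA came from Sprague-Dawley daughters at postnatal day 21, the age of weaning, and the gland taken was the abdominal one of the left side. The labels do not say whether glands were pooled. Dams of both groups received BPA at 250 µg/kg of body weight per day by gavage from gestational day 10 to 21. Dams of the BPA250+genistein group also ate chow with 250 mg/kg genistein, about 5.5 mg/kg of body weight per day. The other groups used below, with 5 arrays each, are BPA250+indole (the same BPA dose with indole-3-carbinol at 2000 mg/kg chow, about 45.0 mg/kg per day), BPA25+genistein and BPA25 (BPA at 25 µg/kg per day with and without the genistein diet), and the negative control, whose vehicle is not given in the sources used here. No group with genistein and no BPA is analysed here. Per the series' description the offspring came from different litters.

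BPA is a monomer of polycarbonate plastics and a weak oestrogen. Genistein is a soy isoflavone that binds oestrogen receptors, with a preference for the beta form, and inhibits tyrosine kinases at high concentrations. The gland at weaning is a small tree of epithelial ducts with terminal end buds, its growing tips, inside a fat pad. The abdominal fat pad of rodents also holds a lymph node, nerves and vessels and lies against body wall muscle. In RNA of a whole gland, fewer cells of a type and less RNA per cell cannot be told apart.

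BPA250 replicate 2 stood apart in brightness. On that array 94.8% of probes were well above background, against 31.9% to 72.2% on the other 9 arrays. It lay on slide 3, which held no BPA250+genistein array. The other arrays of slide 3 were as bright: negative control replicate 2 (93.4%), BPA25 replicate 2 (94.7%) and BPA25+genistein replicate 2 (96.4%). BPA250+genistein replicate 4 was the dimmest, with a 75th percentile signal of 30.4, and it scored 101 on the second principal component, where the other 9 arrays of both groups scored between -16.5 and 22.5. All levels below are log2 values relative to the 75th percentile of the array, so a level of 0 equals that percentile. The plot of probes above background shows that replicates 2 and 3 of both groups were brighter than replicates 1, 4 and 5. Both groups were spread over the same 4 scan days, 1 or 2 arrays of each group a day, and shared slides 5 and 10 (replicates 3 and 5 of each).

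**Figure D1:**
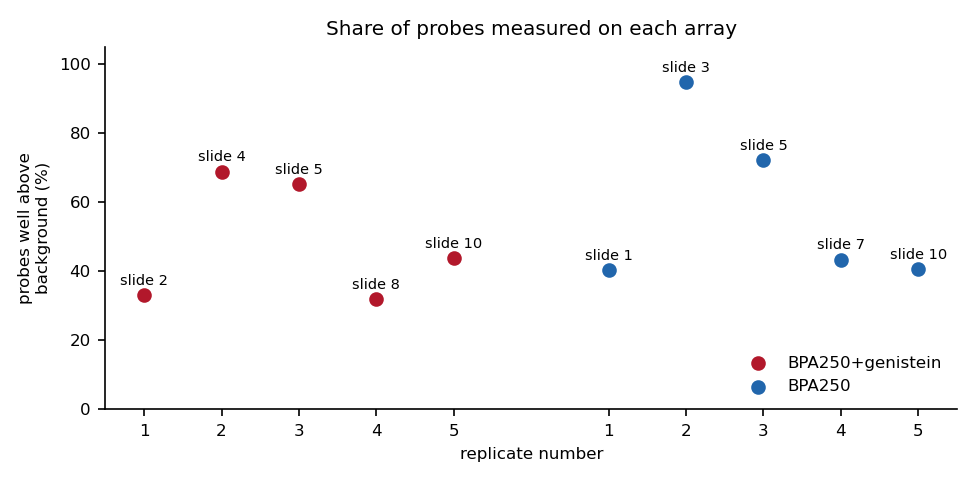
Share of probes well above background (vertical axis, percent) on each of the 5 BPA250+genistein and 5 BPA250 arrays, by replicate number, with the slide of each array written at its point. BPA250 replicate 2 on slide 3 reached 94.8%, and the other 9 arrays lay between 31.9% and 72.2%.

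The tissue showed the markers of a fatty gland with some epithelium. Adipoq, the adipocyte hormone adiponectin, stood at 8.29 ± 0.53 in BPA250+genistein and 7.98 ± 0.97 in BPA250 glands (SD, n = 5 each), above background on all 10 arrays. Krt18, a keratin of luminal epithelium, stood at 3.86 ± 0.58 in BPA250+genistein and 4.09 ± 0.68 in BPA250 glands. Krt14, a keratin of basal cells, was above background on 4 of 5 BPA250+genistein and 5 of 5 BPA250 arrays.

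No gene passed the test for genistein added to BPA250. Limma, fitted to all 35 arrays, called 0 of 16151 genes (0.0%) at a Benjamini-Hochberg adjusted p under 0.05, and the smallest adjusted p was 0.811. This fit had no block for slide, scan day or replicate number. At an unadjusted p under 0.05 stood 680 genes, of which 412 (2.55% of all tested) were higher in BPA250+genistein and 268 (1.66%) were lower. The ranges of both groups did not overlap for 44 genes that were higher (0.272%) and 28 that were lower (0.173%). Over all genes the median log2 fold change was 0.07, and 58% of genes had a fold change above 0. Without BPA250 replicate 2 the median was -0.12 and 39.3% of genes were above 0, so the direction of the overall shift rested on that array. The balance of the unadjusted counts turned with it: 361 genes were higher and 575 lower without BPA250 replicate 2, and 1181 were higher and 1786 lower with slide as a fixed block. Fold changes below are log2 values of BPA250+genistein minus BPA250 with their standard errors from limma, 5 arrays per group, and none of them passed the test unless stated.

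Among RefSeq-named genes with higher levels, chosen by the rule given below, the smallest p-values belonged to a stress protein, a lymphocyte factor, a transporter and a myelin gene. Tp53inp1, a nuclear protein induced by p53 that promotes autophagy, read -0.56, -1.51, 0.13, -0.21 and -0.05 in BPA250+genistein glands, against -1.29, -1.75, -1.12, -1.78 and -1.38 in BPA250 glands. Only BPA250+genistein replicate 2 reached into the BPA250 range, and the fold change was 1.03 ± 0.29 (adjusted p = 0.915). Tox, a DNA-binding protein of T cell development, read 0.96, 0.15, 0.73, 0.41 and 0.57 in BPA250+genistein glands, against 0.02, -0.74, -0.28, -0.43 and -0.02 in BPA250 glands. The groups did not overlap for Tox, and its fold change was 0.85 ± 0.24 (adjusted p = 0.915). Slc16a11, a transporter of the monocarboxylate family, stood at 0.04 ± 0.67 in BPA250+genistein and -1.03 ± 0.36 in BPA250 glands (SD, n = 5 each), a fold change of 1.07 ± 0.31.

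Prx, which encodes periaxin of the myelin sheath of peripheral nerves, read 0.76, -1.63, -2.09, 0.05 and -1.08 in BPA250+genistein glands, against -2.56, -2.11, -1.20, -2.67 and -3.32 in BPA250 glands. Its fold change was 1.58 ± 0.48 (adjusted p = 0.956), and within slide 5 the BPA250+genistein array was the lower one, by 0.88 (-0.88). Prx was above background on 5 BPA250+genistein and 2 BPA250 arrays. Apod, a lipocalin that carries small lipids, stood at 2.29 ± 1.01 in BPA250+genistein and 0.85 ± 0.40 in BPA250 glands with no overlap, a fold change of 1.44 ± 0.44. Tti1 (a cofactor of large kinases such as mTOR and ATM, 1.06 ± 0.33) and Zc3h8 (a zinc finger protein, 0.77 ± 0.24) also had groups that did not overlap. Akap8l, a nuclear scaffold protein, had a fold change of 1.15 ± 0.37, and its other probe gave 1.07 ± 0.32. Bclaf3 stood at 0.91 ± 0.29 and Car4, a membrane-bound carbonic anhydrase, at 1.37 ± 0.45. Of features with no gene name in RefSeq, BG373087 (2.63 ± 0.66, above background on 4 BPA250+genistein arrays and 1 BPA250 array) and AI502668 (1.31 ± 0.33) had the smallest p-values among those above background on at least 4 of 5 arrays of either group. Their unadjusted limma p-values (0.000343 and 0.000394) were below that of Tp53inp1 (0.00111). The groups did not overlap for AI502668, the 1 gene that passed with the authors' deposited values (limma adjusted p = 0.0301).

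Among RefSeq-named genes with lower levels, chosen by the same rule, Dcx had the smallest p-value. Dcx encodes doublecortin, a microtubule protein of migrating neurons. It read -2.90, -3.34, -1.63, -2.80 and -3.26 in BPA250+genistein glands, against -1.49, -1.08, -0.55, -0.56 and -1.95 in BPA250 glands. BPA250+genistein replicate 3 lay within the BPA250 range and the other 4 lay below it. The fold change was -1.66 ± 0.38 (adjusted p = 0.811). Dcx was above background on 1 BPA250+genistein and 4 BPA250 arrays, so its lower level is poorly measured.

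Hspbp1, a cochaperone of HSP70, stood at -1.40 ± 0.49 in BPA250+genistein and -0.47 ± 0.42 in BPA250 glands (SD, n = 5 each), a fold change of -0.93 ± 0.25. Grwd1, a histone-binding protein of ribosome assembly, had a fold change of -1.04 ± 0.28, and Fkbp14, a prolyl isomerase of the endoplasmic reticulum that acts on collagens, one of -0.85 ± 0.26. B4galt2, a galactosyltransferase of the Golgi, stood at -1.19 ± 0.32, and Rps6ka4, a kinase that acts on histone H3 and CREB, at -1.20 ± 0.34. Lrrc17, a secreted leucine-rich repeat protein, read -0.65, -1.03, -1.21, -0.19 and -1.20 in BPA250+genistein glands, against -0.14, -0.43, 0.25, 0.33 and 0.22 in BPA250 glands, a fold change of -0.90 ± 0.25. The remaining named genes were Pcdha4 (-0.96 ± 0.29), a clustered protocadherin whose family shares exons, so that its probe may read other members, Mrm3 (a methyltransferase of mitochondrial ribosomal RNA, -0.90 ± 0.28) and Ttf2 (a transcription termination factor, -1.03 ± 0.32). Grwd1, B4galt2 and Rps6ka4 were above background on 2 of 5 BPA250+genistein arrays and Ttf2 on 3. Of features with no gene name in RefSeq, LOC690517 had a fold change of -1.25 ± 0.33.

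**Figure D2:**
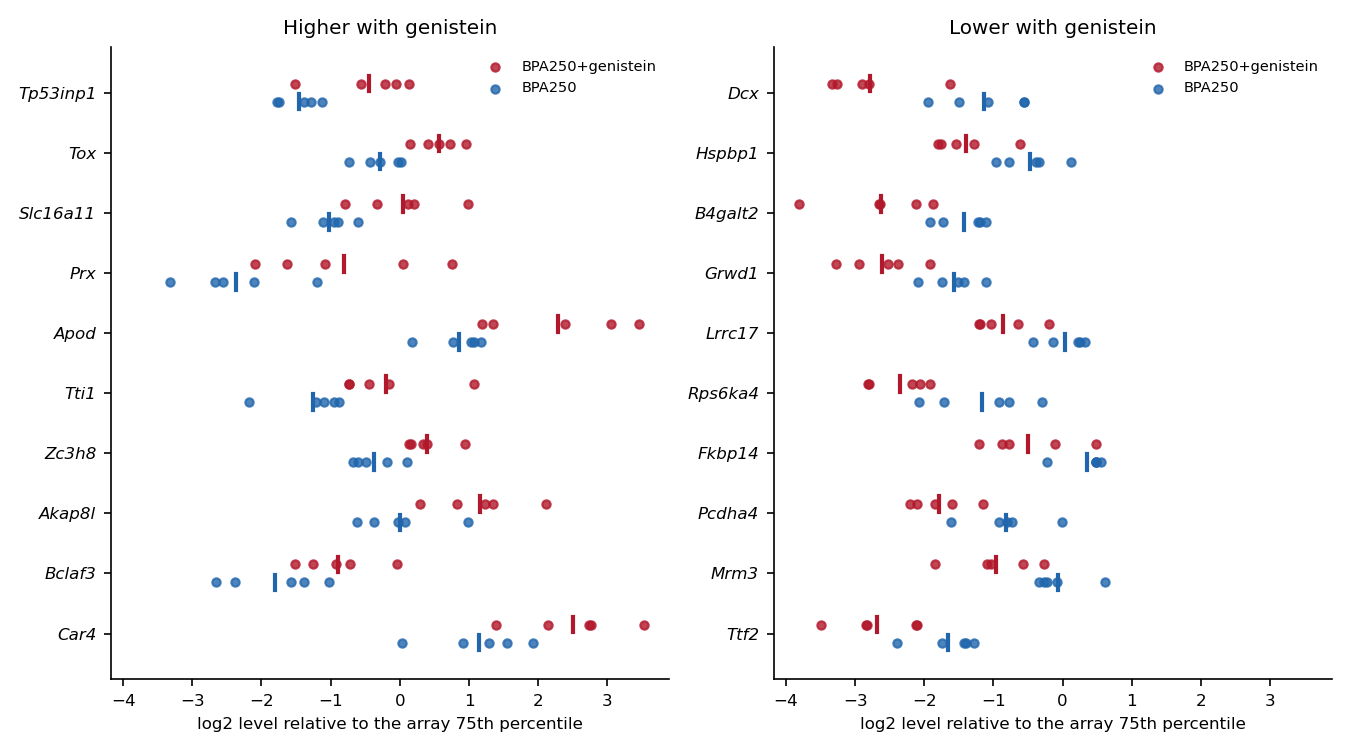
Log2 level relative to the array 75th percentile (horizontal axis) of the 10 named genes with the smallest unadjusted p in each direction; each point is 1 of 5 arrays of BPA250+genistein (red) or BPA250 (blue) and the vertical bars are group means. None of the 20 genes passed adjustment over 16151 genes, and among them the groups stay apart only for Tox, Apod, Tti1 and Zc3h8.

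The deposited files give each probe as a 60-base sequence of the transcript strand with its place on rn3. The first 30 bases are shown for the 2 leading genes in each direction whose probe lies on rn3 as 1 unbroken stretch of a named chromosome, so that the measured transcript can be identified. Slc16a11 was read at chr10:57068835-57068864 on the plus strand, Prx at chr1:82675538-82675567 on the plus strand, B4galt2 at chr5:138344728-138344757 on the minus strand and Grwd1 at chr1:96381957-96381986 on the minus strand. The position within the transcript (exon or untranslated region) is not given in the sources used here.
Slc16a11: catccgggataccacttgttgatcattttc
Prx: catctcattgcctgacgtagaactcacatc
B4galt2: gcattggatccgtgcggtaccgcgtcttgg
Grwd1: tggttcctggaatgtggaccagaggccatt

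The count of genes called depended on how slide entered the fit. With slide as a fixed block 4 genes passed (0.0248%), and with slide as a random block 76 passed (0.471%), 40 higher and 36 lower. The 4 genes were chosen by their values: Tmem263 (-1.57 ± 0.28), Ifi47, an interferon-inducible GTPase (-1.07 ± 0.18), and 2 features with no gene name in RefSeq, each with a limma adjusted p of 0.0495 under the fixed block. Ifi47 read -2.25, -2.39, -2.07, -1.97 and -2.12 in BPA250+genistein glands, against -1.15, -2.20, -0.78, -1.30 and -1.23 in BPA250 glands. Only BPA250 replicate 2 on slide 3 lay among the BPA250+genistein values, and Ifi47 was above background on 1 BPA250+genistein array and 5 BPA250 arrays. With slide as a random block, 15 of the 23 leading features above passed, among them Tp53inp1 (1.04, adjusted p = 0.0338), Tox (0.93, adjusted p = 0.0345), Dcx (-1.55, adjusted p = 0.0361) and Lrrc17 (-0.95, adjusted p = 0.0338), while Prx (adjusted p = 0.112) and Apod (adjusted p = 0.0855) did not. These features had been chosen for small p-values in the fit without a block to the same arrays, so that count is no separate support for them.

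Markers of T cells, B cells and the lymph node had the highest median fold changes among the gene lists. Of the 22 T cell markers on the array 7 were bright enough to be tested, and 7 of 7 were higher, with a median log2 fold change of 1.41, where 58% of all genes were higher with a median of 0.07. The mean level of the 7 genes was 1.07, -0.34, -0.41, 0.28 and 0.56 in BPA250+genistein glands, against -0.43, -0.58, -0.64, -2.02 and -1.51 in BPA250 glands. The lowest BPA250+genistein array lay barely above the highest BPA250 array, and BPA250 replicates 4 and 5 were far below the other 3. Cd3e, the epsilon chain of the T cell receptor complex, had a fold change of 1.85 ± 0.86 (unadjusted p = 0.0393, adjusted p = 1), but it entered the test through the BPA250+genistein group alone, where it was above background on 4 arrays. Without Cd3e, left out after the values were seen, the other 6 genes were all higher (median 1.21), but the groups overlapped: the list mean was 1.30, -0.08, -0.12, 0.53 and 1.02 in BPA250+genistein glands, against 0.20, -0.45, -0.36, -1.59 and -1.03 in BPA250 glands. The T cell median was 0.44 with normexp background correction and 0.67 with the authors' deposited values, and leaving out 1 array at a time gave 0.95 to 1.64. Cd3d, the delta chain, read 3.47, 1.62, 2.71, 2.67 and 3.55 in BPA250+genistein glands, against 2.51, 0.16, 2.06, 0.53 and 1.17 in BPA250 glands (1.52 ± 0.81). Zap70, the kinase that relays the receptor's signal, stood at 1.41 ± 0.78 and Cd8b, a coreceptor of cytotoxic T cells, at 0.89 ± 0.60. The list mean was higher on each of 4 shared scan days, by 0.24 to 2.30. On slides 5 and 10, which reuse arrays of those scan days, it was higher by 0.23 and 2.07.

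Other lists that hold lymph node transcripts had higher values on the same arrays. The lymph node stroma and high endothelial venule list (the vessels by which lymphocytes enter a node) had 7 of 7 tested members higher with a median of 0.94. Its mean was 3.78, 1.60, 1.91, 2.36 and 4.24 in BPA250+genistein glands, against 2.91, 0.63, 2.16, 0.92 and 2.29 in BPA250 glands. The groups overlapped, and BPA250+genistein replicates 1 and 5 were the highest of the 10 arrays for this list and for T cells. Madcam1, an address molecule for lymphocytes, had a fold change of 0.94 ± 0.50, Glycam1, a ligand of L-selectin, 2.03 ± 1.62, Ltb, a lymphotoxin of lymphocytes, 1.06 ± 0.88, and Clu, the secreted chaperone clusterin, 0.70 ± 0.52. Which cells of the gland gave the Glycam1 and Clu signal was not tested. B cell markers had 3 of 3 tested members higher (median 1.00, of 11 on the array), with Cd79b of the B cell receptor at 1.53 ± 1.19, and the list mean was higher on 2 of 4 scan days. MHC class II genes, which present antigen, had 5 of 5 higher (median 0.83), with Cd74, the invariant chain, at 1.06 ± 0.80 and RT1-Db1 at 0.82 ± 0.65. Without BPA250 replicate 2 the medians were 1.49 for T cells, 0.58 for lymph node stroma, 1.28 for B cells and 0.47 for MHC class II. The B cell median was 0.49 without BPA250+genistein replicate 5 and 0.51 without BPA250 replicate 4, and the MHC class II median was 0.44 without BPA250+genistein replicate 5. RT1-Bb gave 0.91 ± 0.74 with one probe and -0.14 ± 0.76 with the other, and RT1 genes have near copies. No plasma cell marker of 6 was bright enough to be tested. The macrophage list showed no such size (median 0.16, and -0.20 without BPA250 replicate 2). The part that the amount of node in each sample has in these values was not tested.

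**Figure D3:**
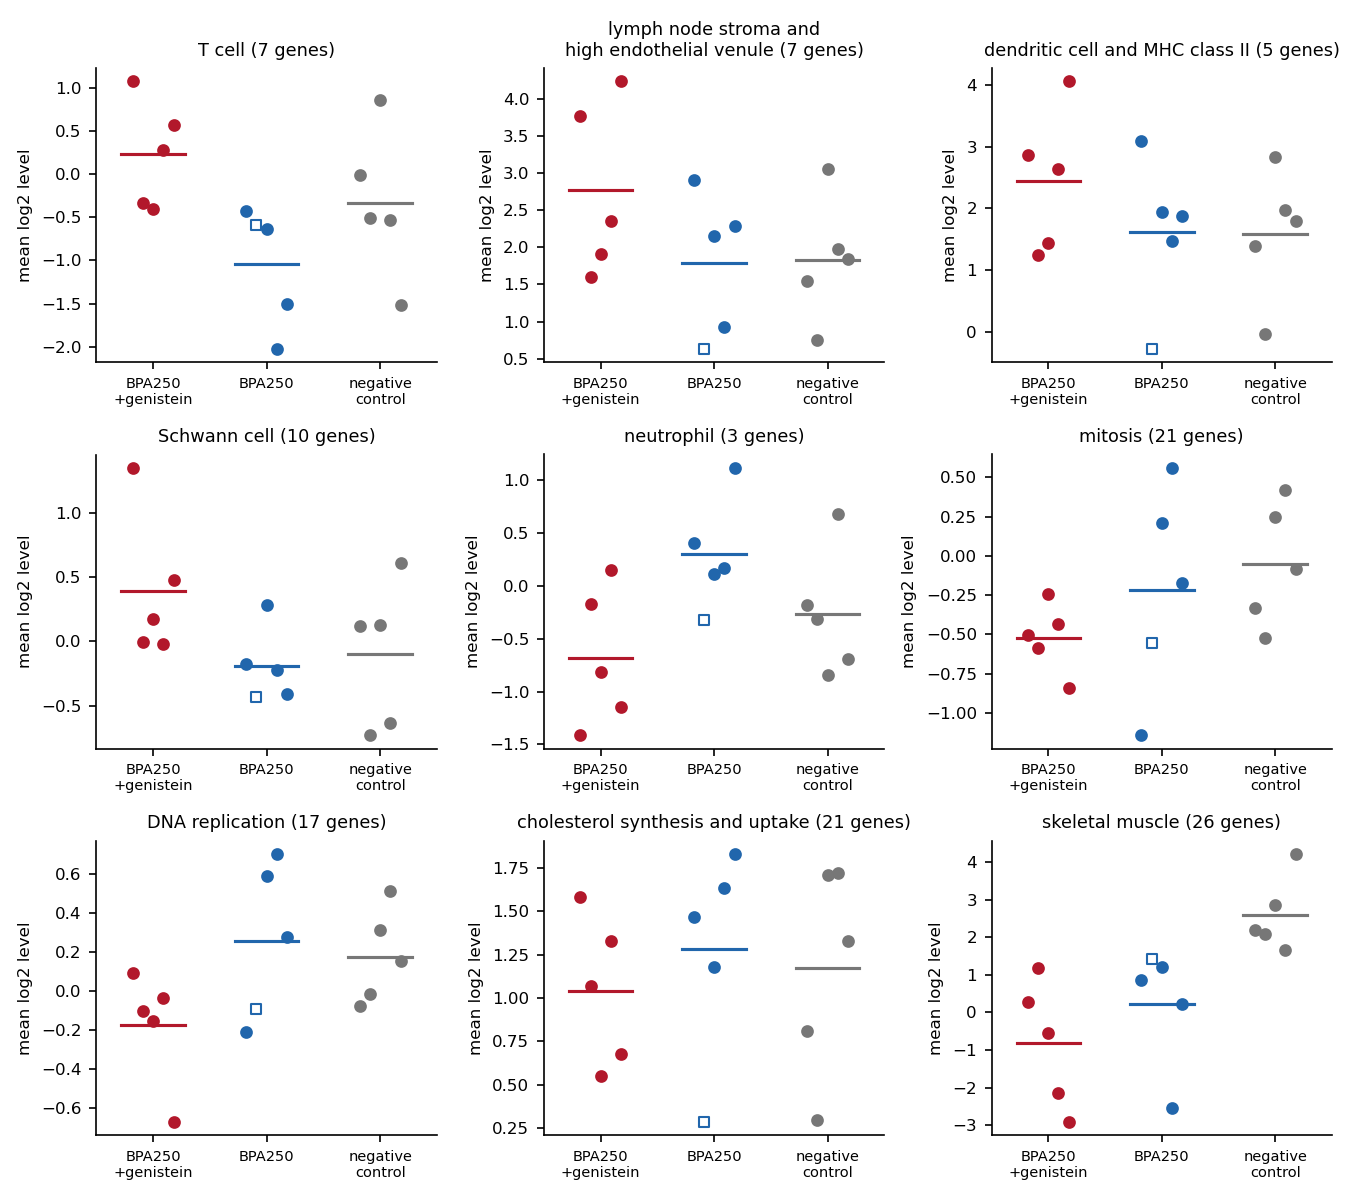
Mean log2 level of the tested members of 9 gene lists (vertical axes, scale differs by panel) on each array of BPA250+genistein, BPA250 and the negative control; points are arrays, bars are group means, and the open square is BPA250 replicate 2 on slide 3. In the T cell panel BPA250+genistein arrays run from -0.41 to 1.07 and BPA250 arrays from -2.02 to -0.43, a separation that is lost without Cd3e.

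Myelin genes of Schwann cells, the glia of peripheral nerves, were higher in BPA250+genistein glands for 8 of 10 tested members, 5 of them at an unadjusted p under 0.05, with a median of 0.59. Of all tested genes 58% were higher, and 2.55% were higher at an unadjusted limma p under 0.05. Mbp, myelin basic protein, read 1.16, -0.98, 0.48, 1.09 and -0.15 in BPA250+genistein glands, against -1.27, -1.12, 0.38, -1.96 and -2.22 in BPA250 glands (1.56 ± 0.55, unadjusted p = 0.0078, adjusted p = 1). BPA250 replicate 3 lay among the BPA250+genistein values and the other 4 BPA250 arrays were below the lowest of them. Pllp, plasmolipin of the myelin membrane, had a fold change of 1.46 ± 0.53. The 2 members with the opposite sign, named after their values were seen, were Egr2, the transcription factor of myelination (-0.92 ± 0.59), and Pmp22, peripheral myelin protein (-0.52 ± 0.85). The list mean was 0.40 ± 0.57 in BPA250+genistein and -0.19 ± 0.29 in BPA250 glands (SD, n = 5 each). Leaving out 1 array at a time gave list medians of 0.54 to 0.73, and with only probes above background on all 10 arrays the median was 0.11.

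Markers of neutrophils were lower in 3 of 3 tested members of 6 on the array (median -0.95). S100a8, a subunit of the calcium-binding protein calprotectin, read -2.77, -0.10, -2.43, -0.21 and -1.63 in BPA250+genistein glands, against 0.48, -0.91, -0.99, -0.21 and 1.07 in BPA250 glands (-1.32 ± 0.65, unadjusted p = 0.0523). S100a9, its partner, had a fold change of -0.95 ± 0.47 and Mpo, myeloperoxidase, -0.67 ± 0.50. The list mean was lower on each of 4 scan days, and both groups overlapped. With normexp background correction the median was -0.33. S100a8 and S100a9 are also made by keratinocytes. Of the keratinocyte list 2 of 7 markers on the array were tested, 1 higher and 1 lower.

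Basal epithelial genes were lower for 5 of 8 tested members (median -0.78). The median was -0.41 without BPA250 replicate 1, and 0.40 with only probes above background on all 10 arrays. Krt5, a basal keratin, read -3.68, -1.67, -1.65, -2.47 and -0.80 in BPA250+genistein glands, against 0.45, -1.46, 0.40, -1.64 and -1.56 in BPA250 glands (-1.29 ± 0.60, unadjusted p = 0.0392, adjusted p = 1). BPA250 replicates 1 and 3 were high and the other 3 lay within the BPA250+genistein range. Oxtr, the oxytocin receptor of myoepithelium, had a fold change of -1.27 ± 0.61 and Tp63, the factor that maintains basal cells, -0.99 ± 0.61. Myh11, smooth muscle myosin, had 0.86 ± 0.53, with 0.29 ± 0.55 by its other probe. Oxtr was above background on 1 BPA250+genistein and 4 BPA250 arrays. Luminal genes were lower for 8 of 12 (median -0.31), with Krt8 at -0.83 ± 0.61 and Epcam, an adhesion protein, at -0.76 ± 0.63, while Gata3, a luminal transcription factor that T cells also use, stood at 1.24 ± 0.83. Milk protein genes had 3 of 6 higher, with the casein genes Csn2 at 0.72 ± 0.49 and Csn3 at -0.85 ± 0.55, with Csn3 above background on 1 BPA250+genistein and 2 BPA250 arrays.

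Cell division genes had small negative values in most members with all arrays. Of the mitosis list 20 of 21 were lower (median -0.30, range -0.79 to 0.01), and of the DNA replication list 16 of 17 (median -0.30). Without BPA250 replicate 4 the mitosis median was -0.11 with 6 of 21 higher, and without BPA250 replicate 1 it was -0.55 with 0 of 21 higher. The DNA replication median was -0.58 without BPA250 replicate 2. Aurka, a spindle kinase, had a fold change of -0.78 ± 0.48, Birc5, survivin of the chromosomal passenger complex, -0.51 ± 0.38, Ube2c of the anaphase-promoting pathway -0.52 ± 0.40, and Ccna2, cyclin A2, -0.42 ± 0.35. Chaf1b, a chromatin assembly subunit, read 1.68, 1.19, 0.72, -1.97 and 0.65 in BPA250+genistein glands, against 1.47, 0.73, 1.56, 2.51 and 2.21 in BPA250 glands (-1.24 ± 0.54, unadjusted p = 0.0268), and the dim replicate 4 supplied the lowest value. Mcm6, a helicase subunit, stood at -0.71 ± 0.38. The mean of the mitosis list was -0.50, -0.59, -0.24, -0.43 and -0.84 in BPA250+genistein glands, against -1.14, -0.56, 0.21, 0.56 and -0.17 in BPA250 glands. The BPA250+genistein values lay inside the BPA250 range, whose SD was 0.66. When slide was fitted as a fixed block, medians were -0.68 for mitosis and -0.51 for DNA replication.

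Sterol and fat synthesis genes gave medians whose size and sign moved with single arrays. Of 21 cholesterol genes 14 were lower (median -0.14). The median was -0.50 with 2 of 21 higher without BPA250 replicate 2, and -0.65 with 0 of 21 higher with slide as a fixed block. Leaving out BPA250 replicate 5 gave 0.03 and leaving out BPA250 replicate 4 gave 0.00, each with 11 of 21 higher. Hsd17b7, an enzyme of sterol demethylation, read -3.07, -2.47, -3.62, -3.01 and -2.65 in BPA250+genistein glands, against -1.97, -2.49, -2.34, -2.61 and -1.42 in BPA250 glands (-0.80 ± 0.29, unadjusted p = 0.0101, adjusted p = 1). It was above background on 1 BPA250+genistein and 4 BPA250 arrays. Sc5d, lathosterol oxidase, had -0.68 ± 0.32 and Sqle, squalene epoxidase, -0.79 ± 0.40. Of 18 genes of fatty acid and triglyceride synthesis 13 were lower (median -0.22), and the median was -0.45 without BPA250 replicate 2 and 0.05, with 10 of 18 higher, without BPA250+genistein replicate 5. Mlxipl, the carbohydrate-responsive factor ChREBP, had 0.68 ± 0.35, Pnpla3 -1.09 ± 0.65, Lpin1, a phosphatidate phosphatase, 0.70 ± 0.53 and Fads1, a desaturase, -0.61 ± 0.50. White adipocyte markers had a median of 0.25 with all arrays and -0.12 without BPA250 replicate 2. Oxidative phosphorylation genes had 12 of 20 higher with all arrays (median 0.03) and 0 of 20 without it (-0.39), where the median of all genes was -0.12.

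**Figure D4:**
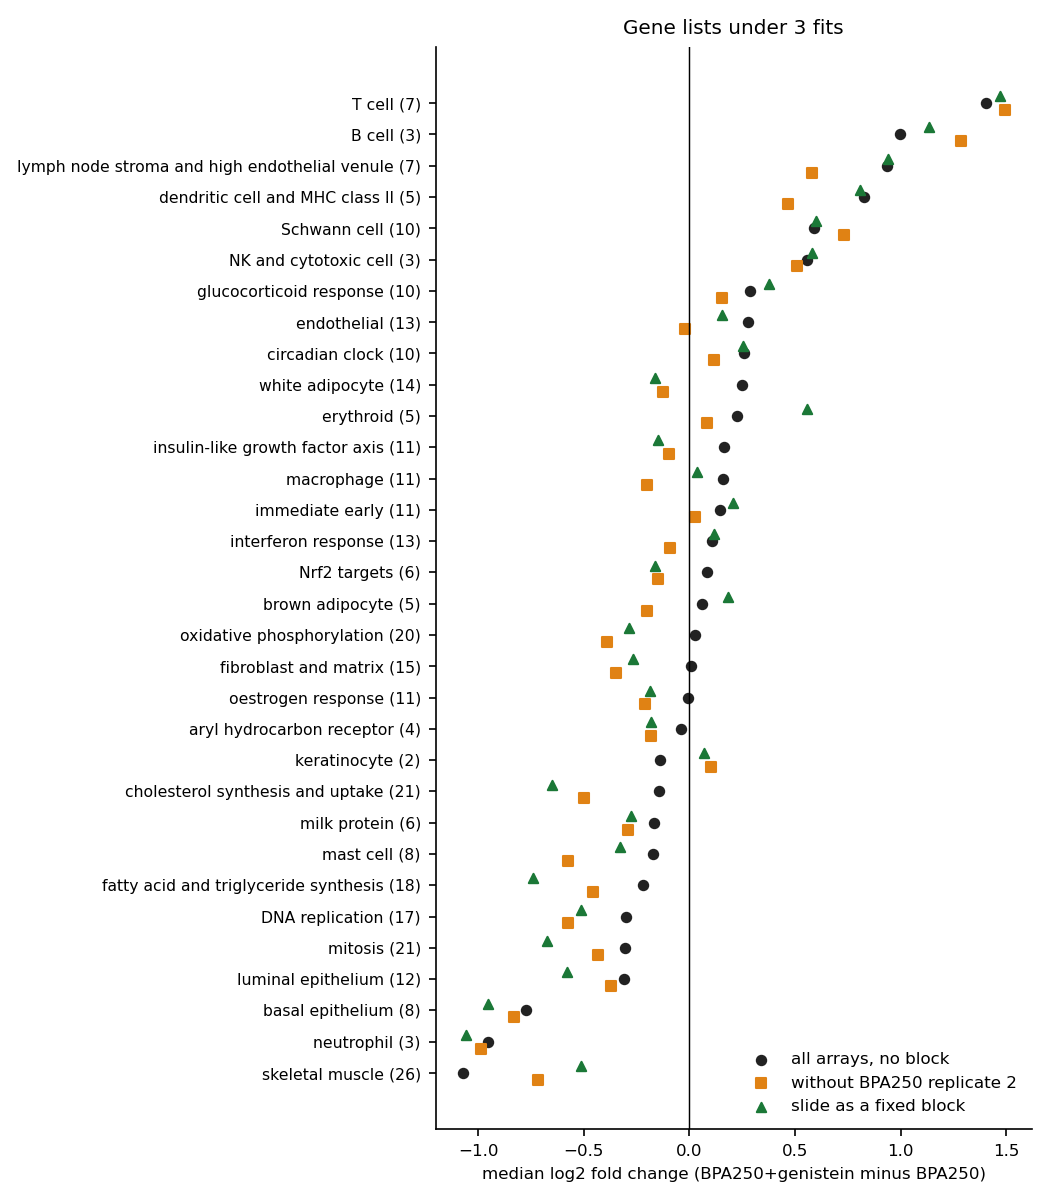
Median log2 fold change of BPA250+genistein minus BPA250 over the tested members of each gene list (horizontal axis; number of members in brackets) in the fit to all arrays (circles), without BPA250 replicate 2 (squares) and with slide as a fixed block (triangles). The T cell median was 1.41, 1.49 and 1.47 in these 3 fits (0.44 with normexp background correction), and the cholesterol median moves over -0.14, -0.50 and -0.65.

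Skeletal muscle genes were lower for 21 of 26 tested members (median -1.07), with a spread between arrays larger than the difference. The list mean was 0.28, 1.19, -0.56, -2.13 and -2.90 in BPA250+genistein glands, against 0.85, 1.42, 1.22, -2.53 and 0.22 in BPA250 glands. Replicates 4 and 5 of BPA250+genistein and replicate 4 of BPA250 were low, and the other arrays overlapped. Acta1, skeletal actin, had a fold change of -2.84 ± 1.51, Myl11, a fast myosin light chain, -2.93 ± 2.07, Actn3, fast fibre actinin, -2.0 ± 1.41 and Tnni2, fast troponin I, -1.90 ± 1.40. The median was -1.80 without BPA250 replicate 4 and -0.50 without BPA250+genistein replicate 5.

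Glucocorticoid-induced genes were higher for 8 of 10 tested members (median 0.29), 3 of them at an unadjusted p under 0.05. Over all genes 58% were higher, and 2.55% were higher at an unadjusted limma p under 0.05. The list means overlapped, from 0.36 to 2.38 in BPA250+genistein and from 0.45 to 1.75 in BPA250 glands. Tsc22d3, the leucine zipper protein GILZ, read 4.75, 2.99, 4.83, 4.49 and 5.36 in BPA250+genistein glands, against 3.81, 2.41, 3.28, 3.96 and 3.95 in BPA250 glands. Its fold change was 1.00 ± 0.45 (unadjusted p = 0.0313, adjusted p = 1), while its other probe gave 0.19 ± 0.52. Mt1, a metallothionein, had 1.06 ± 0.48, Sgk1, a kinase of ion transport, 0.66 ± 0.32, and Cebpd, a transcription factor, 0.48 ± 0.47. Circadian clock genes had 7 of 10 higher (median 0.26), led by the clock repressors Cry2 (0.88 ± 0.37) and Per2 (0.84 ± 0.45) and by Tef (0.68 ± 0.52) and Cry1 (0.32 ± 0.33). No time of day for the collection of glands is given in the sources used here.

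The receptors for genistein and BPA gave little signal. Esr1 and Esr2, oestrogen receptors alpha and beta, were above background on 1 and 0 of 5 BPA250+genistein arrays and on 2 and 1 of 5 BPA250 arrays. Gper1, a membrane oestrogen receptor, and Cyp1a1, a target of the aryl hydrocarbon receptor, were above background on 1 BPA250+genistein and 3 BPA250 arrays each. The 2 Pgr (progesterone receptor) probes were above background on at most 1 BPA250+genistein and 2 BPA250 arrays, and Ahr, the aryl hydrocarbon receptor, on 0 and 1. None of these 6 genes was tested, and no probe was matched to Greb1. Areg, an oestrogen-induced growth factor of ductal growth, stood at -2.28 ± 0.64 in BPA250+genistein and -1.41 ± 1.29 in BPA250 glands (SD, n = 5 each), a fold change of -0.87 ± 0.56 (adjusted p = 1). Oestrogen-responsive genes had 5 of 11 higher (median -0.01), including Ctsd, a lysosomal protease, at 0.47 ± 0.50, Tff3 at -0.25 ± 0.29 and Rasd1 at -0.51 ± 0.66. Targets and partners of the aryl hydrocarbon receptor had 1 of 4 higher, with Cyp1b1 at -0.29 ± 0.44, Tiparp at -0.05 ± 0.34, Nfe2l2 at -0.02 ± 0.45 and Ugt1a6 at 0.37 ± 0.29. Each difference here lay within 2 standard errors.

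Most of the remaining lists had medians between -0.17 and 0.28, where the median of all genes was 0.07. They were endothelial (0.28), erythroid (0.23), insulin-like growth factor axis (0.16), immediate early (0.14), interferon response (0.11), Nrf2 targets (0.09), brown adipocyte (0.06), fibroblast and matrix (0.01) and mast cell (-0.17). Markers of NK and cytotoxic cells had 3 of 3 tested members of 10 on the array higher (median 0.56), but 2 of 3 (0.19) without BPA250 replicate 4.

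The effect of genistein at the higher BPA dose was then set against its effect at BPA25. These comparisons share no arrays. Limma called 0 genes (0.0%) for the difference of both effects, and 187 of 16151 stood at an unadjusted p under 0.05. Slc16a11 had a fold change of 1.07 with genistein at BPA250 and of -0.76 at BPA25, a difference of 1.83 ± 0.44 (adjusted p = 0.94). Prx had 1.58 at BPA250 and -1.54 at BPA25 (difference 3.12 ± 0.67, adjusted p = 0.873), and Apod had 1.44 and -1.16 (2.60 ± 0.62). Dcx had -1.66 at BPA250 and 0.02 at BPA25 (-1.68 ± 0.54). The Schwann cell median was 0.59 at BPA250 and -0.77 at BPA25, with 5 of 10 members at an unadjusted p under 0.05 for the difference. The T cell median was 1.41 at BPA250 and -0.11 at BPA25, and no T cell gene had an unadjusted p under 0.05 for the difference. Skeletal muscle stood at -1.07 and -3.85, with 6 of 26 members at an unadjusted limma p under 0.05 for the difference. How far the BPA250 and BPA25 reference levels differed for muscle was not tested. Mitosis stood at -0.30 and -0.37. These list medians are descriptions, and no list difference was tested.

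**Figure D5:**
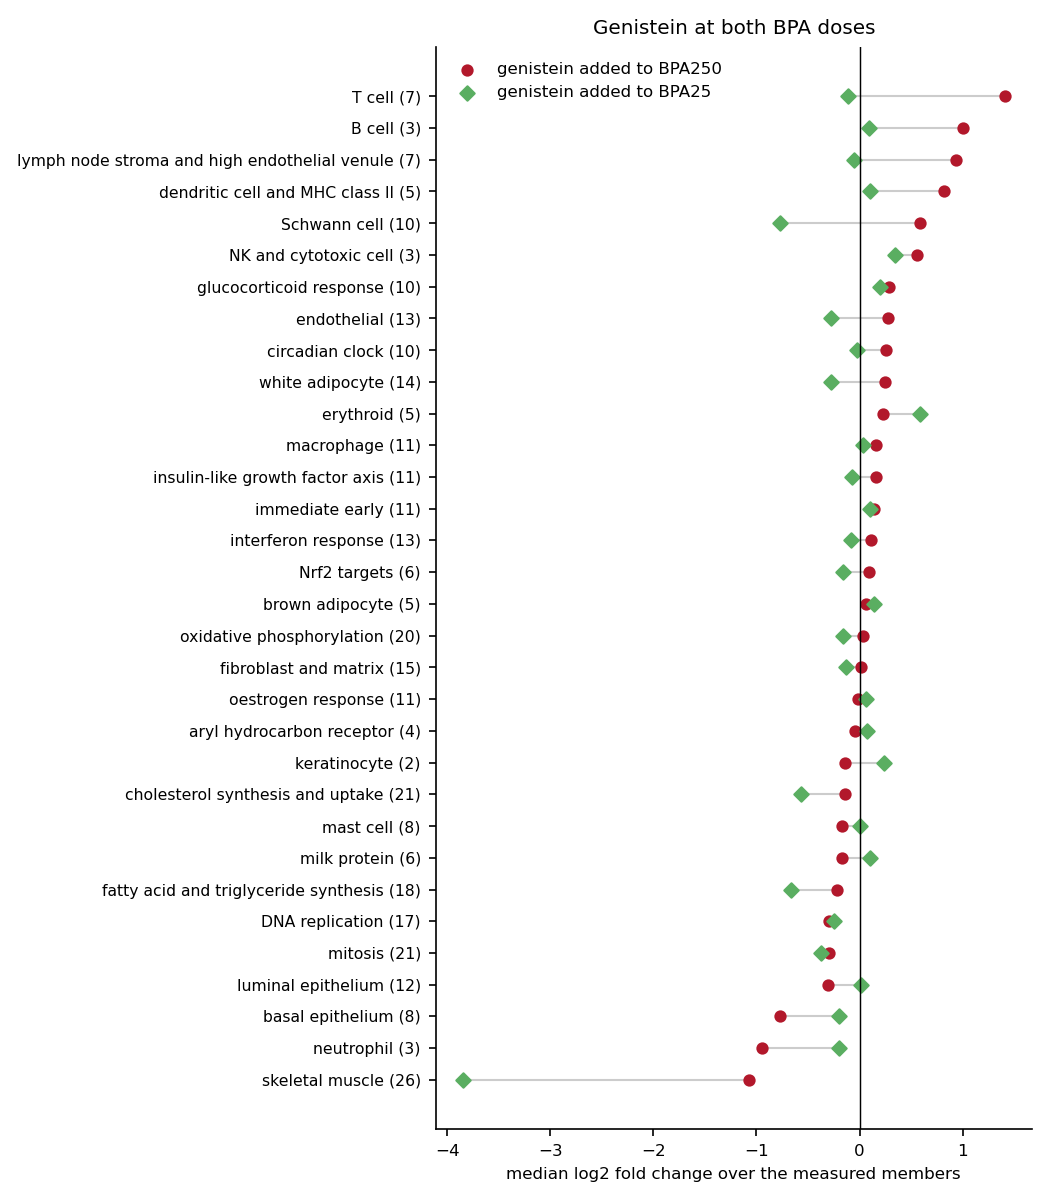
Median log2 fold change (horizontal axis) over the tested members of each gene list for genistein added to BPA250 (circles, minus BPA250) and genistein added to BPA25 (diamonds, minus BPA25), with the number of members in brackets. The Schwann cell medians lie at 0.59 and -0.77 and the skeletal muscle medians at -1.07 and -3.85.

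Genistein was also set against indole-3-carbinol, a compound of cruciferous vegetables, at the same BPA dose. Limma called 0 genes (0.0%) between BPA250+genistein and BPA250+indole, with 1920 at an unadjusted p under 0.05 and a smallest adjusted p of 0.0559. It called 1094 genes (6.77%) without the arrays of slide 3. Slide 3 held no array of either group, so the fold changes stayed the same and only the estimated spread differed. With slide as a fixed block it called 1878 genes (11.6%), of which 380 were higher and 1498 lower in BPA250+genistein. Over all genes the median log2 fold change was -0.14, and 6402 of 16151 genes were higher in BPA250+genistein. Among the lists, erythroid genes had the lowest median (-1.77, 0 of 5 higher, 4 at an unadjusted p under 0.05). Cholesterol synthesis was lower in BPA250+genistein for 20 of 21 members (median -1.01), and mitosis (-0.78), DNA replication (-0.72) and fatty acid synthesis (-0.85) were lower as well. Schwann cell genes (median 0.95, 7 of 10 higher) and T cell genes (0.67, 7 of 7 higher) were higher in BPA250+genistein than in BPA250+indole. Dcx stood at -1.61 and Prx at 2.23 in this comparison.

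Against the negative control, limma called 0 genes (0.0%) for BPA250+genistein, with 690 at an unadjusted p under 0.05. This comparison shares the BPA250+genistein arrays with the first. The list medians in it were 0.64 for T cells, 0.30 for Schwann cell genes, -0.49 for mitosis, -0.44 for neutrophil markers and -3.77 for skeletal muscle, with 25 of 26 muscle genes lower. BPA250 arrays without genistein also lay below the negative control for muscle. The muscle list mean ran from 1.66 to 4.20 in the negative control, from -2.53 to 1.42 in BPA250 and from -2.90 to 1.19 in BPA250+genistein. The negative control arrays had T cell means from -1.51 to 0.86, a range that holds 4 of 5 BPA250+genistein and 4 of 5 BPA250 arrays.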

How the data were processed

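Total RNA was labelled with Cy3 and hybridised to whole rat genome arrays made by Agilent, as the labels' protocols state. Per the file headers, the deposited processed signal is an intensity after local background subtraction and detrending by Feature Extraction 9.5.3.1 (also named in the submitters' processing notes), the mean spot and background signals are uncorrected intensities, and flags of 0 or 1 (other) mark saturation, outliers and signal well above background. The authors' deposited table holds normalised values taken as log2 from their range (column medians 6.55 to 6.58; rank correlation with the processed signal 0.691 to 0.981 per array); its normalization is not given in the sources used here, and it served as an alternative.

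The processed signal was centred on the array's 75th percentile in log2, outlier-flagged spots were left out, spots of a probe were averaged, and the brightest probe stood for a gene. Probes had to be well above background on at least 4 of 5 arrays of at least 1 of 7 groups, which left 16151 genes, 9412 of them named through the RefSeq table of GRCr8 (21301 of 41012 probes matched; the rest kept the files' names). The filter used all groups, so a gene dim in both groups compared here may be tested. Limma 3.58.1 in R 4.3.3 fitted group means to all 35 arrays, with Benjamini-Hochberg adjustment over all genes. Further steps used Python 3 (pandas, numpy, matplotlib). The fit was tested on simulated data. The number of arrays limits the precision.

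In BPA250+genistein and BPA250, arrays with the same number shared a scan day. Their deviations from the group means correlated in each of 5 pairs (r of 0.323, 0.662, 0.300, 0.233 and 0.312), so the numbers were taken as possible pairs. The main fit, which called 0 genes, did not use this pairing. Some pairs of unequal number correlated as much (BPA250+genistein 3 with BPA250 2, r of 0.363). Same-numbered arrays of BPA25+genistein, not taken as pairs, also shared scan days with BPA250+genistein. They correlated more strongly (r of 0.396, 0.697, 0.427, 0.664 and 0.597), so a pairing and a shared scan day cannot be told apart. Same-numbered arrays of BPA250+indole (down to -0.175), BPA25 (-0.221) and the negative control (-0.239) did not all correlate, so there the numbers were not taken as pairs. Slide alone (10 slides) accounted for 61.4% of the variance, scan day (5 days) for 39.4%, replicate number (5 numbers) for 37.6% and group (7 groups) for 16.4%. Each share was taken alone and each slide was scanned on a single day, so the shares overlap. A factor with more classes takes a larger share by chance, so they cannot be ranked directly. The members and gene lists were chosen with earlier results of these data known. By the rule for named genes, each direction shows genes past an adjusted p of 0.05, filled up to 10 with those of smallest unadjusted p whose log2 fold change is 0.58 or more in size and are well above background on at least 4 of 5 arrays of either group. The 10 were taken among RefSeq-named genes, which the rule did not state: 22 unnamed features in the higher and 7 in the lower direction ranked ahead of the last named gene, and up to 2 of each are given. A few genes chosen by these rules are not reported here. Of each described list up to 4 members of smallest p are named, and receptors and their targets were always looked up.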

Additional observations from a re-analysis of the deposited data

Results flagged for a closer look

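In 244 groups of 5 values (the named genes and the list means, in BPA250+genistein and BPA250), 20 held 1 array farther from the others than Dixon's 95% critical value allows, 8.2% of the groups, where chance flags about 1 in 20. BPA250 replicate 2 on slide 3 was that array in 9 of them and BPA250+genistein replicate 4, the dimmest, in 1. In BPA250 replicate 2, levels were low for RT1-Bb (0.36, others 2.29 to 3.03), Cldn4 (-2.21, others -1.14 to -0.85), Lpin1 (-0.98, others 0.67 to 1.34), Tiparp (-0.38, others 0.92 to 1.33) and Nfe2l2 (0.26, others 2.13 to 2.85). The list means of macrophage (0.55), mast cell (0.09), aryl hydrocarbon receptor (-0.22) and insulin-like growth factor axis (1.65) genes were low on the same array. In BPA250+genistein replicate 4, Chaf1b (-1.97) was low.

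The muscle genes Acta1 (-1.87, others 1.76 to 2.88), Myl11 (-0.98, others 5.49 to 7.04) and Tnni2 (0.63, others 4.82 to 5.81) were low in BPA250 replicate 4. BPA250 replicate 5 was low for Tti1 (-2.18) and high for Mrm3 (0.62) and S100a9 (1.75, others 0.16 to 0.47). BPA250 replicate 1 was low for Fkbp14 (-0.23, others 0.48 to 0.56) and Pnpla3 (-1.40). BPA250+genistein replicate 3 was high for Ube2c (-0.03), and replicate 2 was low for the insulin-like growth factor axis mean (2.53, others 2.99 to 3.17).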

How the results depend on the processing

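For genistein added to BPA250 the count of 0 genes became 1 with the authors' deposited values, 4 with slide as a fixed block, 76 with slide as a random block and 226 with array weights (52 higher, 174 lower); it was 0 under the other alternatives, and 0 to 0 when 1 array was left out. For BPA250+genistein against BPA250+indole the count of 0 became 16 with quantile normalization, 18 with the authors' values, 6 with the filter on the BPA250 and BPA250+genistein groups, 5 with probes above background on all 10 arrays, 3 with all probes separate, 1878 and 1830 with slide as a fixed and a random block, 149 with scan day as a block, 1094 without slide 3, 236 with the replicate block, 2251 with array weights and 2 with a variance trend; leaving out 1 array gave 0 to 53, with 53 without BPA250+genistein replicate 2 and 12 without BPA250 replicate 2. For the difference between doses the replicate block gave 1 gene (Slc16a11, 1.83 ± 0.32, limma adjusted p = 0.0449) and array weights 8. In these comparisons and against the negative control the replicate numbers were not taken as pairs. Against the negative control, slide gave 1 (fixed) and 3 (random), scan day 1, leaving out slide 3 gave 1 and array weights 197. The replicate block changed no other call, and gave 0 genes for BPA250+genistein against BPA250. That block was fitted together with the other groups, whose numbers were not taken as pairs. A paired fit of BPA250+genistein and BPA250 alone was not run, so this count does not test the pairing of these groups. Slide 3 held no array of BPA250+genistein or BPA250+indole, so leaving it out changed only the spread in their comparison. The cause of the other differences was not tested. Of 686 alternative values for 27 leading and looked-up genes, 1 of them not reported here, 653 kept direction and side of the threshold, 32 passed it (16 with slide as a random block, 15 with array weights, 1 with the authors' values) and 1 changed sign: Cyp1b1 stood at 0.23 with array weights, against -0.29. Of 829 alternative list medians, 8 moved by more than the spread between arrays: T cell 0.44 (normexp) and 0.67 (authors' values), neutrophil -0.33 (normexp), Schwann cell 0.11, basal epithelium 0.40 and milk protein 0.36 (above background on all 10 arrays), milk protein 0.36 (filter on both groups) and cholesterol -0.77 (array weights). Genes above background on few arrays of a group are limited by signal, and 5 arrays a group limit the precision.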
